A study of Mus musculus with 90 samples.

Results

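The Ces1 genes encode a mouse family of carboxylesterases, and 5 of them, Ces1c, Ces1d, Ces1e, Ces1f and Ces1g, were followed here in whole lung. They are 5 of 17097 genes with a probe set assigned to a single symbol. Members were taken by name, with the brightest such probe set over all 90 arrays; each had only 1, so brightness decided nothing. The family itself was chosen by measured values, the low Ces1f and Ces1g signals in both strains without Cyp2f2 and the high Ces1g signal in exposed wild-type lungs. Values and p-values for those comparisons, and for the strain difference in the Ces1g response, therefore describe the choice and are not independent evidence for it.

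The study exposed 90 adult male C57Bl/6 mice to styrene vapour and measured lung RNA on arrays, 1 animal per array. Wild-type mice (WT), mice lacking CYP2F2 (KO, CYP2F2(-/-)) and mice lacking CYP2F2 that carry the transgenes 2F1, SA13 and 2B6 (TG) breathed 0, 40 or 120 ppm for 6 hours a day on 5 days a week. Exposure lasted 1 or 4 weeks, and lungs were taken the next morning, which gave 18 groups of 5. Animals at 0 ppm breathed air only and carried the genotype of their strain. All TG animals thus share the CYP2F2 deletion with KO, and nothing in the labels used here says which promoter drives the transgenes.

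Carboxylesterases cut ester and amide bonds in drugs, environmental chemicals and lipids, and most family 1 members sit in the endoplasmic reticulum. Rodents carry many Ces1 copies in tandem where humans have a single main CES1 gene. Lung carboxylesterase is known for hydrolysing inhaled esters and lipids. Cyp2f2 is the club cell P450 that oxidises styrene in mouse lung.

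On the GRCm38.p6 assembly, RefSeq places 8 family genes, Ces1a to Ces1h, side by side on the minus strand of chromosome 8, from position 93020214 to position 93379777. Ces1c (93099015 to 93131283), Ces1d (93166072 to 93197804), Ces1e (93201218 to 93229631), Ces1f (93256236 to 93279766) and Ces1g (93302369 to 93337209) were measured by a probe set of their own. Ces1a, Ces1b and Ces1h had no single-symbol probe set and were not analysed here. Ces1f was read by a probe set of the "_s_at" class, which can match related transcripts, so its values are uncertain in such a dense family.

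The 250 bases before the transcript start are shown for Ces1g, Ces1c and Ces1e, the only 3 of the 5 members with a matching RefSeq promoter. Ces1d and Ces1f had none, so their promoters could not be read. Ces1g and Ces1c are the members whose values were higher in exposed WT lungs, and Ces1e lies between them. All 3 windows hold the same 8 bases. Starts are those of the RefSeq promoter table; for Ces1e that start lies a few bases inside the outer end of the gene as given above, so its window overlaps that span. Sequences are from RefSeq (GRCm38.p6, chromosome 8, minus strand), where 3 of the 5 members matched. They run 5′ to 3′ with TTATGTAA in capitals, the site that PAR bZIP factors of the clock output bind. The windows are chr8:93337210-93337459 for Ces1g, chr8:93131284-93131533 for Ces1c and chr8:93229620-93229869 for Ces1e.
Ces1g: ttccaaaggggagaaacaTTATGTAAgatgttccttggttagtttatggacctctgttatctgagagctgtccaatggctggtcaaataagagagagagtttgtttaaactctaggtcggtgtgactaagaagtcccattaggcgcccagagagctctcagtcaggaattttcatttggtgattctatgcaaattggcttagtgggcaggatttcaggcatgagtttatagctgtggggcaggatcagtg
Ces1c: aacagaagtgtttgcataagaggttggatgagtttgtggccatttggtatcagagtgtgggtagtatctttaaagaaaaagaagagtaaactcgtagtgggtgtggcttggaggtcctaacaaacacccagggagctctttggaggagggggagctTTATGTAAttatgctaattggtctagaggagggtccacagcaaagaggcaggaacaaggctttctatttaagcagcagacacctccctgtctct
Ces1e: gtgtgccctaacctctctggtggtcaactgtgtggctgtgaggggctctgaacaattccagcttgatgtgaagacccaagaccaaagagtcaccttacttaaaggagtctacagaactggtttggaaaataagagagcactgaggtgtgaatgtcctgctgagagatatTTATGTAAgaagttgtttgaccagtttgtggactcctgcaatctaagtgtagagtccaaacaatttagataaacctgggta
TTATGTAA lay at -232 to -225 from the start in Ces1g, at -94 to -87 in Ces1c and at -81 to -74 in Ces1e. This motif was chosen after the sequences were read. Searched on both strands, it was found in 268 of 32817 windows of the same length (0.817%). That share is no measure of chance for these 3 windows. They belong to neighbouring copies of the same family and are not independent of each other. The letters just after the site are also alike in Ces1g and Ces1e. The other motif searched, TGACNNNGC, the core of the antioxidant response element, was in 0 of these 3 windows and in 3333 of all windows (10.2%). Aligned in pairs, Ces1g and Ces1c were identical at 159 of 250 bases (63.6%), Ces1g and Ces1e at 150 (60.0%) and Ces1c and Ces1e at 146 (58.4%). These alignments allowed gaps, with 219, 203 and 199 bases aligned in that order. No other promoter pairs were aligned, so the shares have no baseline and do not show relatedness. Such matches describe the letters only.

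Values are log2 of the deposited normalised signal. A level below 4.42, the lowest median of any array, is called dim here, because it lies among the weaker probe sets of the array. That limit comes from 1 array, animal 3 of WT at 120 ppm for 1 week. A value not called dim can therefore lie below the median of its own array. One such value was the lowest WT control of Ces1g (4.50, array median 4.82). Counts of dim animals depend on this limit. Means over 90 arrays were 11.38 for Ces1d, 5.98 for Ces1e, 5.13 for Ces1f, 4.56 for Ces1g and 3.14 for Ces1c. These cannot be ranked against each other, since probe sets differ in brightness. Ces1c was dim in 88 of 90 animals. Ces1g was dim in all 60 KO and TG animals and in 0 of 30 WT animals. Ces1f was dim in 36 of the 60 KO and TG animals and in 0 of the WT animals.

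Array medians ranged from 4.42 to 4.86, and no array was a copy of another. The Cyp2f2 probe set averaged 13.27 in unexposed WT, 11.86 in KO and 11.88 in TG lungs (10 animals each), a difference of -1.41 (SE 0.06) in KO and -1.39 (SE 0.06) in TG, with no overlap. That signal stays bright in KO, and where this probe set lies relative to the deletion was not tested. Club cell and alveolar type II markers were bright in all strains, with list means of at least 11.81, as lung requires. Of 7 measured hepatocyte markers 6 were dim on average (Alb 4.20), and only Cyp2e1 was not (6.93). In a whole organ, fewer cells of a type and less RNA per cell cannot be told apart.

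Unexposed KO lungs had less Ces1f, Ces1g, Ces1e and Ces1d signal than WT lungs. Of 5 members 4 (Ces1d least firmly) were lower in KO at an adjusted p under 0.05 (limma, Benjamini-Hochberg over 17097 genes), where 0.275% of all genes passed and 0.199% passed as lower. The same 4 were lower in TG, where 0.287% of genes passed and 0.216% as lower. Both comparisons use the same WT controls. The median member difference was -0.49 in KO and -0.64 in TG, beside medians over all genes of 0.02 and -0.0024. The family was chosen by the low Ces1f and Ces1g values, so these counts and medians are not independent evidence about it. Only Ces1e, Ces1d and Ces1c stood outside that choice.

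Ces1f, a relative of Ces1d with triacylglycerol hydrolase activity, differed most. Unexposed WT animals ranged from 6.32 to 7.25 with a median of 6.94, KO animals from 3.50 to 5.81 with a median of 4.36, and TG animals from 3.53 to 5.57 with a median of 3.97. Every KO and TG control lay below every WT control, and most were dim (6 of 10 in KO, 7 of 10 in TG). The KO difference was -2.52 (SE 0.27), a 5.73-fold lower signal (adjusted p = 1.7e-10), and the TG difference was -2.65 (SE 0.27), 6.28-fold lower (adjusted p = 2.1e-11). Both folds are against group means that were themselves dim (4.35 in KO and 4.22 in TG), so their exact size is uncertain.

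Ces1g, an esterase whose loss in mice is known to cause obesity and fatty liver, showed narrower groups. Its unexposed WT values ran from 4.50 to 5.60 with a median of 5.24, its KO values from 3.18 to 4.06 with a median of 3.56, and its TG values from 3.09 to 3.80 with a median of 3.31. No KO or TG control reached the lowest WT control, and all were dim. Ces1g was 3.11-fold lower in KO (-1.64, SE 0.15, adjusted p = 7.7e-14) and 3.66-fold lower in TG (-1.87, SE 0.15, adjusted p = 1.4e-16). Since the lower groups were dim, both folds are against values near the bottom of the array.

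Ces1e and Ces1d differed by less. Ces1e, known as egasyn, the protein that holds beta-glucuronidase in the endoplasmic reticulum, had unexposed values of 6.20 to 6.54 in WT, 5.40 to 6.38 in KO and 5.51 to 6.16 in TG. TG animals lay entirely below WT, and 9 of 10 KO animals did. The difference was -0.49 (SE 0.11, adjusted p = 0.0089) in KO and -0.64 (SE 0.11, adjusted p = 6.6e-05) in TG. Ces1d, the main triacylglycerol hydrolase (TGH), spanned 11.44 to 11.65 in WT, 10.99 to 11.52 in KO and 11.14 to 11.47 in TG. In each of the deleted strains 9 of 10 animals lay below every WT animal, but the sizes were small, at -0.24 (SE 0.05, adjusted p = 0.0035) and -0.21 (SE 0.05, adjusted p = 0.033). Both Ces1d calls were lost with only the arrays compared (adjusted p = 0.0959 in KO and 0.0979 in TG), and the TG call also in 8 of the 20 fits that left out 1 animal (adjusted p up to 0.0953).

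Ces1c, a secreted carboxylesterase found in rodent plasma, was dim in every unexposed animal, at 2.99 to 3.43 in WT, 2.65 to 3.10 in KO and 2.75 to 3.22 in TG. Its differences of -0.31 (SE 0.13, adjusted p = 0.58) and -0.15 (SE 0.13, adjusted p = 0.74) did not pass.

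**Figure D1:**
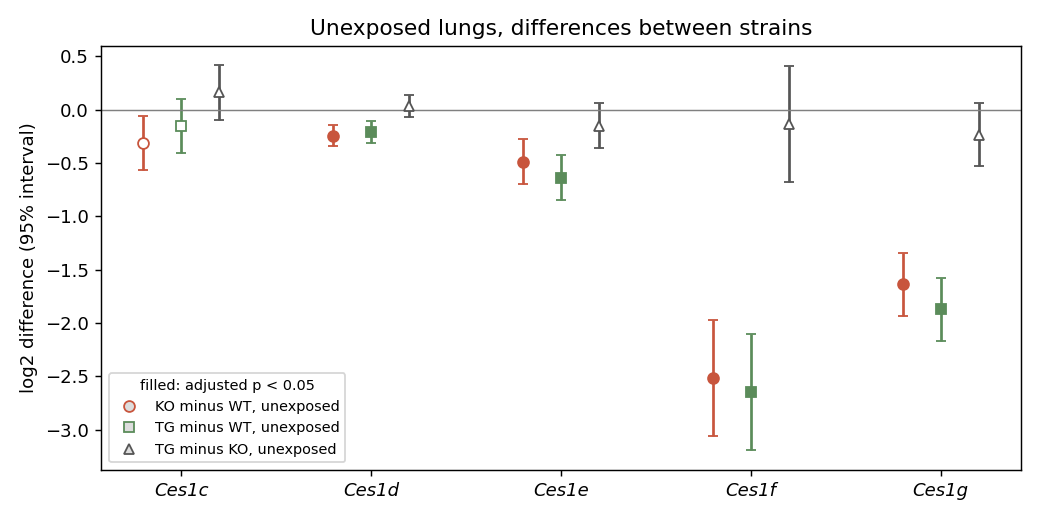
Log2 differences between strains in unexposed lungs for the 5 Ces1 genes, 10 animals per strain; circles show KO minus WT, squares TG minus WT and triangles TG minus KO, and bars are 95% intervals from limma. Filled symbols passed at an adjusted p under 0.05: Ces1f and Ces1g lie lowest (-2.52 and -1.64 in KO), and all TG minus KO intervals include 0.

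With the controls of each week taken separately (5 animals a strain), Ces1f was at -1.97 in KO at week 1 (adjusted p = 0.0041) and -3.06 at week 4 (adjusted p = 5.1e-08), and at -2.09 and -3.21 in TG (adjusted p = 0.0014 and 1.2e-08). Ces1g was at -1.59 and -1.68 in KO (adjusted p = 2.8e-07 and 4.3e-08) and at -1.89 and -1.85 in TG (adjusted p = 6.4e-10 and 1.7e-09). So these 2 passed in each week in both strains. Ces1e passed within a week only in TG at week 4 (-0.76, adjusted p = 0.0031), and its other 3 within-week values lay from -0.51 to -0.49 (adjusted p = 0.22 to 0.54). Ces1d kept its sign but passed in neither week (adjusted p = 0.07 to 1).

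The TG and KO strains were also set against each other, where the transgenes are the labelled difference. Of 5 members 0 passed, also at an unadjusted p under 0.05, while 0.135% of all genes passed in limma. Ces1g was at -0.23 (95% interval -0.53 to 0.06), Ces1f at -0.13 (-0.68 to 0.41), Ces1e at -0.15 (-0.36 to 0.06), Ces1d at 0.03 (-0.07 to 0.13) and Ces1c at 0.16 (-0.09 to 0.42). These intervals do not show that the strains are alike.

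Markers of other cell types were read beside these strain differences. Hepatocyte list means lay between 3.44 and 3.66 in the unexposed groups of all strains. Of 5 measured adipocyte markers (Lep and Ucp1 dim on average), 0 passed in KO or TG against WT, and 1 and 2 had an unadjusted p under 0.05; unexposed group means of the list were 4.44 and 4.78 in WT, 5.21 and 4.78 in KO and 5.22 and 5.13 in TG. Of 8 club cell markers, Cyp2f2 and Aldh1a7 were lower in both strains (Aldh1a7 at -0.32 and -0.25), and 4 had an unadjusted p under 0.05 in each. Scgb1a1 was at -0.03 in each, and the highest value was that of Scgb3a1, at 0.84 in KO (adjusted p = 0.45) and 0.53 in TG (adjusted p = 0.63). Of 7 alveolar macrophage markers 0 passed in KO or TG, with 1 and 3 at an unadjusted p under 0.05. Their unexposed list means were 8.71 and 8.82 in WT, 9.10 and 8.86 in KO and 9.12 and 8.94 in TG. No alveolar type II, fibroblast, endothelial or ciliated marker passed against WT. The 7 ciliated markers lay from -0.41 to -0.03 in TG, and 3 of 7 fibroblast markers in KO had an unadjusted p under 0.05. The part of these levels in the Ces1 differences was not tested.

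Styrene changed Ces1g in WT lungs at each dose and time. Week 1 WT controls, animals 1 to 5, had values of 5.52, 4.50, 5.46, 5.16 and 5.35. At 40 ppm for 1 week the values were 6.79, 7.02, 6.52, 7.01 and 6.31. At 120 ppm for 1 week they were 6.85, 7.43, 8.75, 7.45 and 6.25. Every exposed animal exceeded every control of its week, and the 120 ppm group was the widest (SD 0.93, against 0.41 in controls). Ces1g was 2.89-fold higher at 40 ppm (1.53, SE 0.21, adjusted p = 1.2e-07) and 4.43-fold higher at 120 ppm (2.15, SE 0.21, adjusted p = 4.8e-12).

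After 4 weeks the WT controls were at 5.21, 4.95, 5.26, 5.14 and 5.60. At 40 ppm the values were 7.83, 7.97, 7.24, 7.94 and 7.59, and at 120 ppm they were 8.67, 8.23, 7.74, 8.08 and 7.72. Again no exposed animal overlapped a control. The difference was 2.48 (SE 0.21), or 5.59-fold, at 40 ppm (adjusted p = 1.1e-14), and 2.86 (SE 0.21), or 7.24-fold, at 120 ppm (adjusted p = 7.2e-18). By p-value Ces1g ranked 1st of all 17097 genes in both week 4 comparisons.

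**Figure D2:**
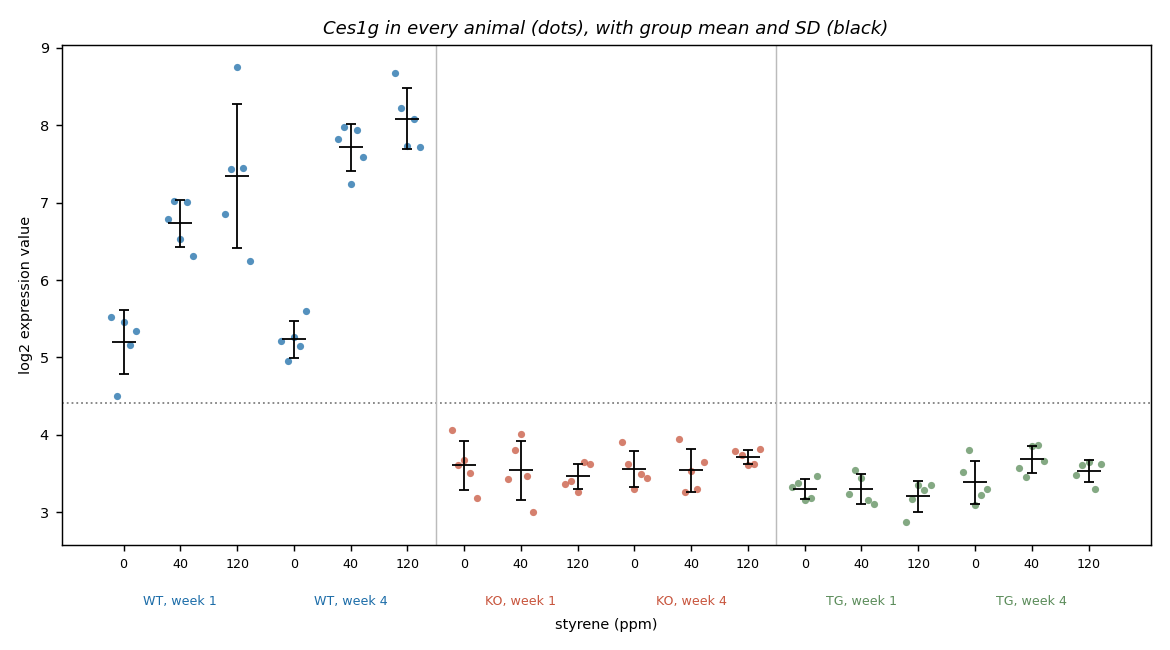
Log2 signal of Ces1g in each of the 90 animals (dots), by strain, week and styrene concentration in ppm, with group means and SD in black; the dotted line marks 4.42, below which a level is called dim. WT controls lie at 4.50 to 5.60 and exposed WT animals at 6.25 to 8.75, while all KO and TG animals stay between 2.87 and 4.06.

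Because limma pools the spread of all 18 groups, its SE of 0.21 is small for the scattered 120 ppm group of week 1. Fitted on its own 10 arrays, that comparison kept its difference of 2.15 and had an adjusted p of 0.0501. Without WT animal 3, the highest of the group, Ces1g was at 1.80 and still passed.

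Ces1c followed the same direction at dim levels. Its week 1 WT controls were at 3.43, 3.26, 3.01, 3.21 and 2.99, the 40 ppm animals at 3.64, 3.82, 3.84, 3.58 and 3.33, and the 120 ppm animals at 3.54, 3.45, 5.24, 3.62 and 3.29. Groups overlapped at both doses, and animal 3 at 120 ppm stood far above its group. The 120 ppm difference of 0.65 (SE 0.18, adjusted p = 0.015) passed, and the 40 ppm difference of 0.46 (SE 0.18, adjusted p = 0.15) did not. Without animal 3 the 120 ppm value was 0.30 and its adjusted p 0.213.

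At week 4 the Ces1c controls were at 3.20, 3.10, 3.05, 3.14 and 3.09. The 40 ppm animals were at 3.65, 3.76, 3.43, 4.43 and 4.04, and the 120 ppm animals at 4.24, 3.84, 3.33, 4.36 and 3.76. Neither exposed group overlapped the controls. The difference at 120 ppm was 0.79 (SE 0.18, adjusted p = 0.015) and passed, and that at 40 ppm was 0.75 (SE 0.18, adjusted p = 0.059) and did not. Leaving out animal 1 or animal 4 at 120 ppm took the adjusted p to 0.0913 and 0.132. All but 2 of the 20 exposed WT values of Ces1c were dim, so the sizes are uncertain.

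The other members gave no call with styrene in WT lungs. Ces1f differences were -0.29, -0.13, -0.03 and -0.21 for 40 and 120 ppm at week 1 and for 40 and 120 ppm at week 4 (SE 0.39 each). Its controls were at 6.64, 6.32, 6.85, 6.81 and 6.64 in week 1 and at 7.25, 7.03, 7.03, 7.07 and 7.07 in week 4. At 120 ppm in week 1 it scattered widely, with values of 5.38, 6.39, 8.46, 7.11 and 5.25 (SD 1.33). At week 4 the 120 ppm animals were at 7.11, 6.61, 6.63, 7.39 and 6.67. Ces1f, low in KO and TG controls like Ces1g, thus gave no call where Ces1g passed each time, though the genes were not tested against each other.

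Ces1e was at -0.24, -0.14, 0.21 and 0.29 in the same order (SE 0.15), and Ces1d at -0.11, -0.11, 0.09 and 0.12 (SE 0.07). Both had values below control in week 1 and above it in week 4, but none passed (adjusted p = 0.43 to 1). Week 4 minus week 1 differences in the styrene change of Ces1e were 0.45 at 40 ppm and 0.43 at 120 ppm and did not pass either.

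In all, 6 of the 20 WT tests passed, each of them higher. The Ces1g calls among them describe the choice of the family, so the counts below are not independent evidence. At 40 ppm 1 of 5 members passed at week 1, where 4.67% of all genes passed, and 1 at week 4, where 0.152% did. At 120 ppm 2 of 5 passed at week 1, where 6.79% of genes passed, and 2 at week 4, where 0.439% did. The shares of all genes called higher were 3.82%, 0.0877%, 3.94% and 0.298% in that order. The median member difference was -0.11 in both week 1 comparisons and 0.21 and 0.29 at week 4, beside all-gene medians of 0.03, 0.0027, 0.01 and 0.0085.

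**Figure D3:**
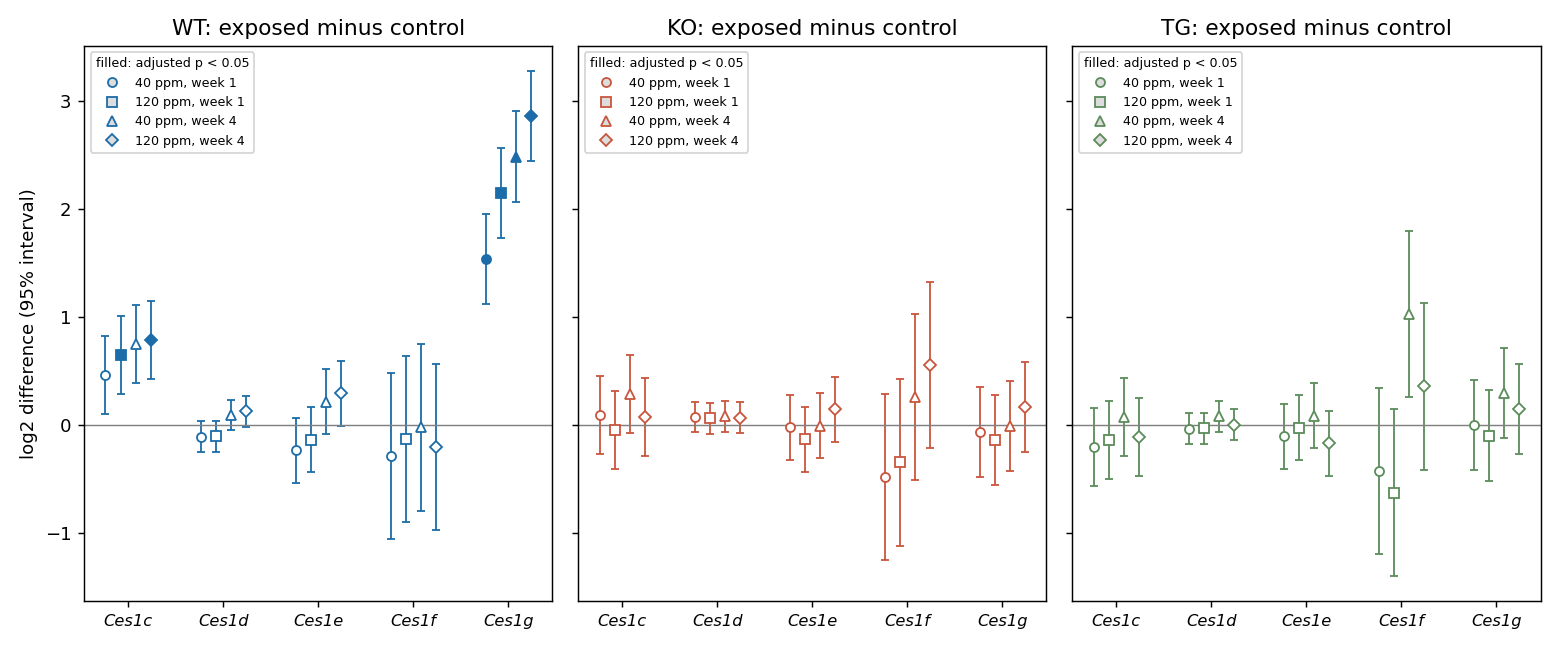
Log2 differences of exposed minus control groups (5 against 5 animals) for the 5 Ces1 genes in WT, KO and TG lungs; symbols give dose and week, bars are 95% intervals and filled symbols passed at an adjusted p under 0.05. Ces1g in WT runs from 1.53 to 2.86, Ces1c in WT from 0.46 to 0.79, and no KO or TG symbol is filled.

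Cell type markers changed in the same WT week 1 groups. Endothelial markers were lower (2 of 8 at 40 ppm and 5 of 8 at 120 ppm), and 3 of 7 alveolar macrophage markers were higher at 120 ppm. Of 8 club cell markers Cyp2f2 was lower at both doses (-0.33 and -0.28) and Gabrp at 120 ppm (-0.63, adjusted p = 0.021), while the list means of the 6 WT groups lay between 12.10 and 12.30. Among fibroblast markers Col1a1 was higher (0.74 and 0.79) and Pdgfra lower (-0.54 and -0.56) at 40 and 120 ppm, and among alveolar type II markers Sftpd was higher at both doses (0.21 and 0.20) and Slc34a2 at 40 ppm (0.26). The macrophage marker Ctsk was higher at 40 ppm too (1.25). Hepatocyte list means lay between 3.44 and 3.65, with 0 of 7 markers passing in 28 tests (1 with an unadjusted p under 0.05), and adipocyte means between 4.44 and 4.78, with 0 of 5 passing in 20 tests (also 0 at an unadjusted p under 0.05). Their part in the Ces1g and Ces1c changes was not tested.

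Animal 3 of the WT group at 120 ppm for 1 week was the highest of its group for Ces1c, Ces1d, Ces1f and Ces1g. Its array, with a median of 4.42 that no other array undercut, received a limma weight of 0.135, and its club cell marker mean was 12.64. The lowest weight, 0.0897, was that of animal 1 of KO at 40 ppm for 4 weeks, the highest of its group for Ces1f (5.09) and Ces1g (3.95). In that group the hepatocyte list mean was 4.25, with animal 4 at 5.93 and animal 1 at 3.79. Without the 4 arrays of low weight, KO at 40 ppm for 4 weeks gave 0 of 5 calls, as with them, and the part of the markers was not tested.

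KO and TG lungs gave 0 of 20 calls each for styrene, at backgrounds of 0%, 0%, 0% and 0.0234% of genes in KO and 0%, 0.0468%, 0% and 0.0117% in TG (40 and 120 ppm at week 1, then 40 and 120 ppm at week 4; limma). At an unadjusted p under 0.05 the counts were 0 in KO and 1 in TG. The all-gene shares depend on the fit. With array weights 73 genes passed in TG at 40 ppm for 4 weeks and 106 at 120 ppm. Ces1g differences ran from -0.15 to 0.16 in KO and from -0.10 to 0.29 in TG. Their 95% intervals together covered -0.56 to 0.71, which leaves out all 4 WT values. As Ces1g was dim in every one of these lungs, the intervals bound the change of the array signal only. A rise in transcript that stayed near background would not be seen. The intervals therefore set no limit on the fold change of the transcript.

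The 1 value in TG that stood out was Ces1f at 40 ppm for 4 weeks. Its 5 animals were at 5.01, 5.17, 3.78, 4.64 and 5.90 against controls at 3.69, 3.89, 4.60, 3.69 and 3.53. Of the exposed animals 4 lay above all controls. The difference was 1.02 (SE 0.39, adjusted p = 0.47) and did not pass, though it did with array weights. At 120 ppm in the same strain and week it was 0.35.

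The difference in response between strains was also tested in limma. The family was chosen with low Ces1g in both deleted strains and high Ces1g in exposed WT lungs in view. Calls and counts for Ces1g below therefore describe that choice and are not independent evidence. The change of Ces1g in KO minus that in WT was -1.60 (SE 0.30, adjusted p = 0.00062) at 40 ppm for 1 week, -2.29 (adjusted p = 3e-07) at 120 ppm for 1 week, -2.49 (adjusted p = 3e-08) at 40 ppm for 4 weeks and -2.69 (adjusted p = 1.6e-09) at 120 ppm for 4 weeks. The same difference for TG against WT was -1.54 (adjusted p = 0.0008), -2.25 (adjusted p = 3.5e-07), -2.19 (adjusted p = 2.9e-06) and -2.71 (adjusted p = 1.2e-09). Fitted on only the arrays compared, the KO value at 120 ppm for 1 week did not pass (-2.29, adjusted p = 0.0603). In the fit of all arrays 1 of 5 members passed each time, against 1.25%, 2.37%, 0.0234% and 0.0175% of all genes for KO and 1.53%, 4.59%, 0.0117% and 0.0292% for TG. At 40 ppm for 4 weeks Ces1g was thus 1 of 4 genes that passed for KO and 1 of 2 for TG. These values share the WT groups, and Ces1g was dim in all KO and TG animals.

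No other member passed such a test. By adjusted p Ces1c came closest, at -0.79 for TG against WT at 120 ppm for 1 week (SE 0.26, adjusted p = 0.057), and its 8 values all lay between -0.90 and -0.37. That value includes WT animal 3, without which the WT change of Ces1c fell from 0.65 to 0.30. By rank of p among all genes Ces1c stood at 890 there, but at 25 for TG against WT at 120 ppm for 4 weeks. TG against KO gave 0 of 20 calls in limma (also 0 at an unadjusted p under 0.05), at a background of 0% in each of 4 comparisons.

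Dose and duration were compared in WT only. Ces1g was higher at 120 than at 40 ppm by 0.61 (95% interval 0.20 to 1.03, adjusted p = 0.87) at week 1 and by 0.37 (-0.04 to 0.79, adjusted p = 1) at week 4. The styrene change was larger at week 4 than at week 1 by 0.95 (0.36 to 1.54, adjusted p = 0.2) at 40 ppm and by 0.71 (0.12 to 1.30, adjusted p = 0.47) at 120 ppm. None passed, although 3 of these 4 intervals lie above 0. The week 1 dose value includes animal 3 at 120 ppm (8.75), whose array had a weight of 0.135. Without it the 120 ppm change from control was 1.80, beside 1.53 at 40 ppm. The pooled spread is also small for that group. Animal 3 enters the duration value at 120 ppm too, where 1 of 5 members passed without it. For all members 0 of 10 dose tests passed (1 at an unadjusted p under 0.05), at a background of 0% in both weeks, and 0 of 10 tests of duration passed (5 at an unadjusted p under 0.05), at 0.532% and 0.883%. Unexposed week 4 and week 1 groups gave 0 of 15 calls (also 0 at an unadjusted p under 0.05) at backgrounds of 0.638%, 0.538% and 0.304% in WT, KO and TG.

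The order of the 18 group means shows how the members differ. For Ces1g the 4 exposed WT groups came first, at 8.09 (120 ppm, week 4), 7.71 (40 ppm, week 4), 7.35 (120 ppm, week 1) and 6.73 (40 ppm, week 1). The WT controls followed at 5.23 (week 4) and 5.20 (week 1), and the 12 KO and TG groups lay between 3.20 and 3.71. Neighbouring groups overlapped in range except at 2 steps, from the last exposed WT group to the WT controls (1.50) and from those to KO and TG (1.48).

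For Ces1f the 6 WT means lay between 6.36 and 7.09 and the 12 others between 3.88 and 4.90, with a gap of 1.46, where the ranges of the groups next to the gap still met. Ces1e put all WT means (6.11 to 6.68) above all others (5.45 to 6.04), as did Ces1d (11.41 to 11.63 against 11.24 to 11.38) and Ces1c (3.12 to 3.90 against 2.76 to 3.04), but in these 3 every neighbour in the order overlapped. The span from lowest to highest group mean was 4.89 for Ces1g, 3.21 for Ces1f, 1.23 for Ces1e, 1.14 for Ces1c and 0.39 for Ces1d. Across the 18 group means Pearson's r between members ran from 0.78 (Ces1c with Ces1e) to 0.97 (Ces1c with Ces1g). These points share arrays, so the values only describe likeness.

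**Figure D4:**
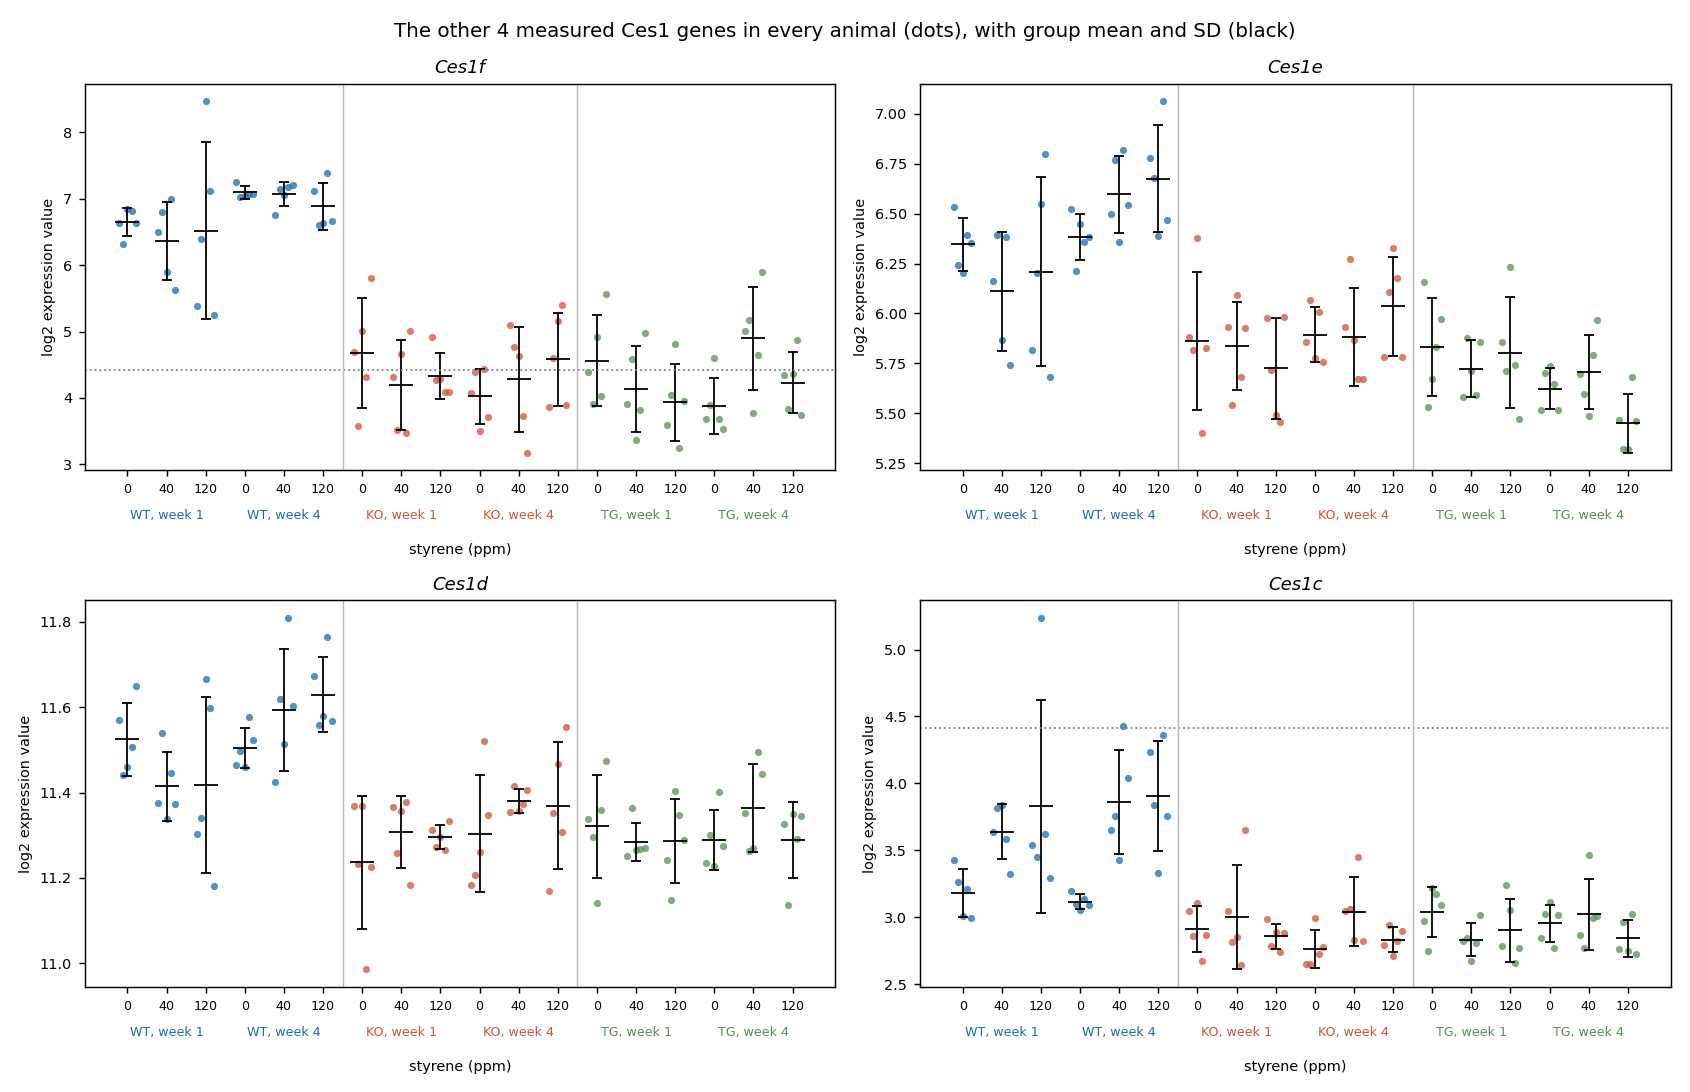
Log2 signal of Ces1f, Ces1e, Ces1d and Ces1c in each of the 90 animals (dots), by strain, week and styrene concentration in ppm, with group means and SD in black; each panel has its own axis and the dotted line marks 4.42 where it falls in range. Ces1f separates WT (5.25 to 8.46) from most KO and TG animals (3.18 to 5.90) at every dose, and Ces1c means lie at 3.12 and 3.18 in WT controls and at 3.64 to 3.90 in exposed WT groups.

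Other carboxylesterases gave no call in the same comparisons. Of 14 listed genes 8 had a probe set of their own, and 0 passed in KO or TG against WT controls (1 and 0 at an unadjusted p under 0.05) or in the 32 WT styrene tests (2 at an unadjusted p under 0.05; limma). The largest WT styrene values were Ces2g at 0.35 (adjusted p = 0.49) and Ces2b at 0.30 (adjusted p = 0.92), both at 120 ppm for 4 weeks, and Ces2b was at 0.25 (adjusted p = 0.78) in KO controls. The list median was 0.05 in KO and 0.03 in TG controls, beside the all-gene values given above.

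Of 20 other ester and lipid hydrolases 19 were measured, and 0 passed between unexposed strains (1 in KO and 3 in TG at an unadjusted p under 0.05). In WT lungs Aadac, arylacetamide deacetylase, rose at 120 ppm for 1 week (0.70, SE 0.13, adjusted p = 7.4e-05), as did Esd, esterase D (0.32, SE 0.07, adjusted p = 0.0014). Lipg, endothelial lipase, fell at 40 ppm (-0.57, adjusted p = 0.0046) and at 120 ppm (-0.67, adjusted p = 0.0005) for 1 week. At 120 ppm the Aadac change of week 1 differed from that of WT in KO (-0.85, adjusted p = 0.0023) and in TG (-0.71, adjusted p = 0.011), and in WT the week 4 change was lower than that of week 1 (-0.81, adjusted p = 0.0059).

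Receptors and factors known to act on liver esterase genes, among them Nfe2l2, Nr1i2, Nr1i3 and Ppara, gave no call. Of 14 listed 12 were measured, and 0 passed in unexposed KO or TG (also 0 at an unadjusted p under 0.05) or in 48 WT styrene tests (6 at an unadjusted p under 0.05), with values from -0.33 to 0.33. The 5 measured genes on each side of the cluster were Irx6, Mmp2, Lpcat2, Capns2 and Slc6a2, and Ces5a, Gnao1, Nudt21, Ogfod1 and Bbs2. Of these 10, 0 passed in KO or TG controls (2 and 0 at an unadjusted p under 0.05). Mmp2, a matrix metalloproteinase, rose in WT at week 1, by 0.74 at 40 ppm (adjusted p = 0.031) and by 0.69 at 120 ppm (adjusted p = 0.037). The other 9 did not pass under styrene in WT. In KO at 40 ppm for 1 week Mmp2 was at 0.78 (SE 0.22), as large as in WT, and did not pass (adjusted p = 0.56). It was at -0.50 (SE 0.15, adjusted p = 0.22) in KO controls.

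Genes whose 18 group means most resembled a member's were found for the 4 members with a span above 1, as a description without a test. For Ces1g they were Cbr3, a carbonyl reductase (r = 0.98), the quinone reductase Nqo1 (0.97), the glucuronosyltransferases Ugt1a9 (0.97) and Ugt1a6a (0.97), and Fetub (0.97). For Ces1c they were Cbr3 (0.98), Fetub (0.95), Akr1c12 (0.94), Nqo1 (0.94) and the thioredoxin reductase Txnrd1 (0.94). For Ces1f they were Pfn2 (0.98), Cyp2f2 (0.98), the glutathione peroxidase Gpx2 (0.95), Ugt1a9 (0.95) and Ugt1a6a (0.95), and for Ces1e they were Vnn3 (0.92), Abcc3 (0.90), Cyp2f2 (0.90), Azgp1 (0.89) and Pfn2 (0.89).

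These genes moved over smaller ranges than Ces1g. All were picked because their group means on these same arrays resembled those of a member. Their differences and adjusted p-values below therefore describe that choice and are not independent evidence. Nqo1 was at -0.87 (adjusted p = 3.9e-06) in KO controls and at 0.66 (adjusted p = 0.017), 1.12 (adjusted p = 5.7e-06), 0.51 (adjusted p = 0.63) and 0.76 (adjusted p = 0.022) in WT at 40 and 120 ppm for 1 week and 40 and 120 ppm for 4 weeks. Cbr3 was at 0.40, 0.58, 0.48 and 0.71 in the same order and passed at 120 ppm in both weeks (adjusted p = 0.0044 and 0.0021). Cyp2f2 itself was at -0.33 (adjusted p = 0.013) and -0.28 (adjusted p = 0.038) in WT at week 1. Pfn2, like Ces1f, was lower in KO (-0.45, adjusted p = 0.001) and TG (-0.51, adjusted p = 7.4e-05) and gave no call under styrene in WT (-0.12 to -0.04).

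**Figure D5:**
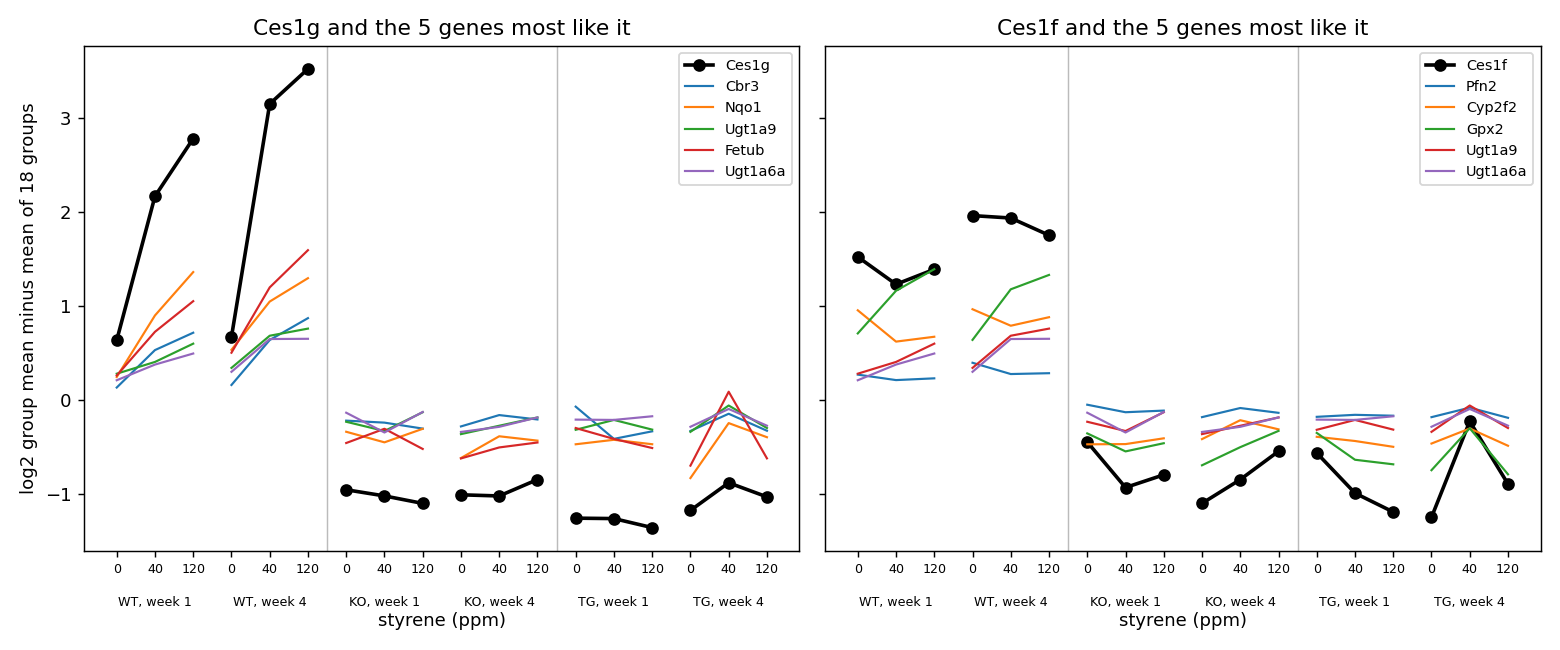
Group means of Ces1g (left) and Ces1f (right) with the 5 genes most like each over 18 groups, plotted as log2 mean minus that gene's average over the 18 groups against strain, week and styrene concentration in ppm. Ces1g spans 4.89 log2 units and its likest genes at most 2.29; Ces1f is high in all WT groups at every dose.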

How the data were processed

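Whole-lung RNA from 90 mice was hybridised to Affymetrix HT MG-430 PM arrays, 1 animal per array. Values are log2 signals as deposited by the authors, made with RMA and Partek per the submitters' processing notes; versions are not stated there. RMA fits background and probe effects over all arrays and gives no detection call, so low values are compressed; array medians of the deposited values still ran from 4.42 to 4.86. The deposited table held 45141 probe sets, of which 28898 map to a single symbol in the platform annotation; the brightest per gene by mean over 90 arrays was kept (17097 genes). Arrays carry no read depth, and their number limits the precision.

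From these values limma 3.58.1 (R 4.3.3) fitted 18 group means over all 90 arrays (72 residual degrees of freedom) and 34 contrasts. P-values were adjusted over all genes by Benjamini-Hochberg, and an adjusted p under 0.05 was called. The steps were tested on simulated data. Alternatives were only the arrays compared, array weights, the animal number as a block, quantile normalisation, the median over probe sets, a filter on dim genes, an intensity trend, and leaving out arrays of low weight or each animal; controls of week 1 or week 4 alone were added after seeing the data. The members, gene lists and tests were chosen with earlier results of these data known. Named are all members, Cyp2f2 as the check of the labels, the 5 genes with the highest Pearson correlation to a member over 18 group means (members spanning more than 1 log2), and of each context list up to 4 that passed, or up to 3 by size where none did. The cluster's neighbours and the motifs were added outside that rule. No batch, slide or scan date was used. Promoters were cut from a RefSeq table of GRCm38.p6.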

Additional observations from a re-analysis of the deposited data

Results flagged for a closer look

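The Ces1g response to styrene differed between strains by the interaction test in limma at every dose and week in the fit of all 90 arrays; with only the arrays compared, KO minus WT at 120 ppm for 1 week did not pass (adjusted p = 0.0603). KO minus WT was -1.60 and -2.29 at 40 and 120 ppm for 1 week and -2.49 and -2.69 at 40 and 120 ppm for 4 weeks. TG minus WT was -1.54, -2.25, -2.19 and -2.71 in the same order. The KO and TG values share the WT groups, and Ces1g was dim in all KO and TG animals. As the family was chosen by these Ces1g values, the tests describe that choice and are not independent evidence.

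Among 90 sets of 5 animals (5 members in 18 groups), 5 held an animal set apart by a gap that made up most of the range of its set. Chance gives about 1 in 20 such sets, so 5 of 90 is close to what chance gives. Some of these gaps were small in log2 units. Ces1c stood at 5.24 in animal 3 of the WT group at 120 ppm for 1 week, next to 3.62. Ces1d stood at 11.36 in animal 2 of TG at 40 ppm for 1 week (next 11.27) and at 11.14, the lowest, in animal 2 of TG at 120 ppm for 4 weeks (next 11.29). Ces1f stood at 7.25 in animal 1 of the WT controls of week 4 (next 7.07) and at 4.92 in animal 1 of KO at 120 ppm for 1 week (next 4.29).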

How the results depend on the processing

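No member changed sign in a call under any alternative run. Counts below are members called of 5. For WT at 40 ppm, week 1 (reported 1), the count was 2 with only the arrays compared, 2 with array weights and 2 without the 4 arrays of low weight. For WT at 120 ppm, week 1 (reported 2), it was 0, 1 and 1 in that order, and leaving out 1 animal gave 1 to 2 (1 without animal 3 at 120 ppm). With only the arrays compared, Ces1g there had an adjusted p of 0.0501 and Ces1c one of 0.437, and the KO minus WT change at 120 ppm, week 1 went from 1 to 0 (Ces1g -2.29, adjusted p = 0.0603). For WT at 40 ppm, week 4 (reported 1), array weights gave 2, the set without low-weight arrays 2, and leaving out 1 animal 1 to 2. For WT at 120 ppm, week 4 (reported 2), only the arrays compared gave 1 (Ces1c adjusted p = 0.0532) and leaving out 1 animal 1 to 2. The TG minus WT change at 40 ppm, week 1 went from 1 to 2 with only the arrays compared and to 2 with array weights. At 120 ppm, week 4 it went to 2 with array weights, and at 120 ppm, week 1 leaving out 1 animal gave 1 to 2. TG at 40 ppm, week 4 went from 0 to 1 with array weights. The WT week 4 minus week 1 change went from 0 to 1 at 40 ppm and to 1 at 120 ppm with array weights, likewise to 1 and 1 without the low-weight arrays, and leaving out 1 animal gave 0 to 1 at 120 ppm. Unexposed strains gave 2 of 4 with week 1 only in KO and 2 in TG, and 2 with week 4 only in KO; each has fewer animals. Ces1d in TG lost its call in 8 leave-outs (adjusted p = 0.0533 to 0.0953), and with only the arrays compared (0.0979; KO 0.0959). The cause of the other changes was not tested.

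The replicate number as a block moved no member count and took the all-gene TG minus WT count from 49 to 80. Animals of the same number in different groups had a median correlation of 0.069 over 765 pairs, against -0.0197 over 3060 pairs of other numbers. Correlations above 0.1 were seen in 344 of the 765 and in 915 of the 3060 pairs. What animals of the same number may share was not tested. All-gene counts moved more with array weights: 47 to 143 for KO minus WT, 49 to 208 for TG minus WT, 23 to 54 for TG minus KO, 799 to 2446 for WT at 40 ppm, week 1, 26 to 87 at 40 ppm, week 4 and 75 to 209 at 120 ppm, week 4. Array weights also raised the week 4 styrene counts in TG, from 0 to 73 at 40 ppm and from 2 to 106 at 120 ppm. In KO those counts went from 0 to 10 and from 4 to 15. For WT at 120 ppm, week 1 the count of 1161 was 36 with only the arrays compared and 2800 without the low-weight arrays. Without those arrays it was also 87 for TG minus WT, 1385, 41 and 118 for WT at 40 ppm, week 1, at 40 ppm, week 4 and at 120 ppm, week 4. TG minus KO gave 7 with only the arrays compared, and WT at 40 ppm, week 4 gave 12 under the filter on dim genes. That filter dropped the 40% of genes with the lowest means over all arrays. Ces1c and Ces1g were among them, so it gives no member count and no value for Ces1g. Signal near background limits Ces1c in all lungs and Ces1f and Ces1g in KO and TG.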
